A study of Homo sapiens with 8 samples.

Results

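The regions described here are places at the ends of protein-coding genes where all 6 peak lists of HA-tagged RUNX1 in HEL cells held a peak. Peaks of the 6 lists on chromosomes 1 to 22 and X were merged where they overlapped by 1 bp or more, which gave 33402 regions. Of these, 3288 held a peak in every list, and 1387 of the 3288 had their midpoint within 1 kb of either end of a protein-coding gene on hg38. Of the other regions in all 6 lists, 1128 lay inside genes and 773 between genes. The 1387 regions were selected on the presence of a called peak in each list, a measured value of the same libraries, and on distance to a gene, so their peak values and their place are given as a description, with no test.

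Binding was measured by CUT&RUN, in which an antibody bound in permeabilized cells brings a nuclease to its target and the freed DNA is sequenced. HEL is an established erythroleukemia line that can express erythroid or megakaryocyte genes. Each line was HEL transduced with a vector and kept in 2 μg/ml puromycin, and every library used an anti-HA antibody on 500000 cells. The vectors carried HA-tagged wild-type RUNX1 (WT), HA-tagged RUNX1-4A, HA-tagged RUNX1-4D or no RUNX1 (empty vector), with 2 biological replicates of each line and 8 libraries in all. In the common naming of such mutants, 4A carries alanines in place of residues that can be phosphorylated and 4D carries aspartates there; the labels do not give the residues. The 2 empty vector libraries served as the background for peak calling and have no list of their own here. The tagged protein was added to cells that keep their own RUNX1, which the antibody does not read, and a peak list holds no expression values against which the label HEL could be checked.

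RUNX1 binds DNA through its runt domain together with the partner CBFB, and its core site reads TGTGGT. It acts at promoters and enhancers of blood cells, is needed for definitive blood stem cells to form, and drives megakaryocyte maturation. Promoters also carry sites for general factors, among them the CCAAT box, bound by NF-Y, and the GC box, bound by SP and KLF factors. CUT&RUN reads DNA near the tagged protein, whether that protein touches the DNA itself or is held there by a partner.

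The promoters of 6 regions with high ranks show what the sequence under these peaks looks like. They were taken from RefSeq promoters of GRCh38.p14, the build of the files, each 300 bp long, from 250 bp before to 50 bp after the start. In each of the 6, the median summit of the 6 libraries lay inside the window. Capitals mark TGTGGT, its variant TGCGGT and CCAAT on either strand, so ATTGG is a CCAAT box on the other strand. MTMR4 (chr17:58517831-58518130 on the minus strand), MYH10 (chr17:8630676-8630975 on the minus strand), TMEM52 (chr1:1919230-1919529 on the minus strand) and AIRIM (chr1:37692193-37692492 on the minus strand) are among the highest ranked regions whose promoter window held both the summit and TGTGGT. KRI1 (chr19:10565961-10566260 on the minus strand) and NFE2L1 (chr17:48048109-48048408 on the plus strand) are among the highest ranked whose window held the summit and no TGTGGT.
MTMR4: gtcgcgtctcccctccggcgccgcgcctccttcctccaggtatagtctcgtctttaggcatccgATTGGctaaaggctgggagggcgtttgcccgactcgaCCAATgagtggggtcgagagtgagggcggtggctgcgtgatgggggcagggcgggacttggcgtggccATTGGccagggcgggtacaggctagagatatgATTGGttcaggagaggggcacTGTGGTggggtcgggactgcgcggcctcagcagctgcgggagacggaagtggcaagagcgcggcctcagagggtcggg
MYH10: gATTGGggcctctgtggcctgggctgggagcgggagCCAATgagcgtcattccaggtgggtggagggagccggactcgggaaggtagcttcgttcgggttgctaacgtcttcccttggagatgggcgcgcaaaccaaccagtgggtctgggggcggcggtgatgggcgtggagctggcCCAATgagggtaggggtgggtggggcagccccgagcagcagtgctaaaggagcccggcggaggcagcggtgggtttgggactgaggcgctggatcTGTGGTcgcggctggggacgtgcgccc
TMEM52: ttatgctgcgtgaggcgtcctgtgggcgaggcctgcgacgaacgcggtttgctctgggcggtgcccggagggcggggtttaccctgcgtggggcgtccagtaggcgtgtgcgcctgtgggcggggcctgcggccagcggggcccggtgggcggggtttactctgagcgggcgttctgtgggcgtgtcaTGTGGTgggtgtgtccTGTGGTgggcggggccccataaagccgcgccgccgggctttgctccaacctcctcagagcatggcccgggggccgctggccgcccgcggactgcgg
AIRIM: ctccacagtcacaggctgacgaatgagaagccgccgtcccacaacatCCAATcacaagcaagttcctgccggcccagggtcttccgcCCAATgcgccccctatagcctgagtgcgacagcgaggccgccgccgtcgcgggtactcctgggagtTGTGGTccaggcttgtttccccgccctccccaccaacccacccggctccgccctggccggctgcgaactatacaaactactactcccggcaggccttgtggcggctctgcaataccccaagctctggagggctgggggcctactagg
KRI1: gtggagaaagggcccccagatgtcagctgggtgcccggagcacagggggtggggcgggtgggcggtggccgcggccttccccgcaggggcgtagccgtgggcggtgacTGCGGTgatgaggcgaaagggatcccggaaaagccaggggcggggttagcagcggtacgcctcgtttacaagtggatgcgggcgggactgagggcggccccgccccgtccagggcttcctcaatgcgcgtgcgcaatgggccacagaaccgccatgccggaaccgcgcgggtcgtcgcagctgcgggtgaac
NFE2L1: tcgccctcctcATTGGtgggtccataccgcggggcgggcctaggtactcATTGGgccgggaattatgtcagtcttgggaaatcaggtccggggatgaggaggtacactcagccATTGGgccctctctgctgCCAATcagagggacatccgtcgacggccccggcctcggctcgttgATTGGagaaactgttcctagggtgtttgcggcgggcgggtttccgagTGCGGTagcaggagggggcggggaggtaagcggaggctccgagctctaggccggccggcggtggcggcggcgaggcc

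In the MTMR4 promoter the nearest CCAAT box was centred 23.5 bp from the median summit and the TGTGGT 77.0 bp from it. MYH10 had 3 CCAAT boxes and 1 TGTGGT at the end of the window; its summits spanned 1429 bp among the libraries, so no distance to their median is given. NFE2L1 had 5 CCAAT boxes, the nearest at 22.5 bp, no TGTGGT and 1 TGCGGT at 152.0 bp. AIRIM was the other way round, with its TGTGGT 9.5 bp from the summit and its nearest CCAAT box at 57.0 bp. KRI1 held 1 TGCGGT at 9.5 bp and no CCAAT, and TMEM52 held 2 TGTGGT, the nearer at 136.5 bp, and no CCAAT. These promoters were picked for holding or lacking TGTGGT, so the presence of both kinds was set by the choice. The promoters printed without TGTGGT, those of KRI1 and NFE2L1, each held the variant TGCGGT. Strong peaks over promoters with neither form are therefore not shown by these examples. A match of letters is a description and not a bound site, and no match says only that these letters are not in this window.

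The share of regions at gene ends was larger among regions found in more lists. It was 18.4% of the 11523 regions called in 1 list, 21.7% in 2 lists, 28.4% in 3, 33.2% in 4 and 36.0% in 5. It was 42.2% of those in all 6 lists (95% Wilson interval 40.5 to 43.9%), against 24.2% (23.7 to 24.7%) of the 30114 regions in fewer than 6. These intervals cover counting error only. The share was 37.1% with a limit of 0.5 kb and 47.1% with 2 kb. With every list shortened to its 5346 strongest peaks, the length of the shortest list, 795 regions remained and the share was 38.0%.

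The RefSeq promoter table gave the strand for 15812 of the 19974 protein-coding genes, and with it 1183 of the 1387 regions could be split by kind of end. By the ends that had a strand, 1067 (90.2%) lay at gene starts alone, 63 (5.33%) at 3′ ends alone and 53 (4.48%) at both. Ends of genes without a strand were left out of this split, so some regions called alone may also touch another kind of end. Regions at 3′ ends alone with a strand for every end numbered 54. For 204 regions no gene end within 1 kb had a strand in the table. The regions touched 1677 genes, which is 8.40% of all protein-coding genes. There were 1084 regions at 1 gene, 293 at 2 and 10 at 3.

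Many of these starts were shared by genes read in opposite directions. Of the 1300 genes with a start at one of these regions, 334 (25.7%) had the start of an opposite-strand gene within 1 kb, against 1179 of 5604 genes (21.0%) with a start at a region in 1 to 5 lists, 7.29% of those with none and 13.7% of the 15812 genes with a strand. Counted by region, 166 of 1120 (14.8%) held starts on both strands. Examples among the highest ranked are the NFE2L1 and COPZ2 pair and the TPCN1 and DRC10 pair. Starts in these counts are the outer ends of the genes. The region at ERAP1 and LNPEP, which encode peptidases that trim peptides, had fold enrichments of 22.4 and 36.7 with WT replicates 1 and 2, 19.1 and 32.0 with 4A, and 18.2 and 35.4 with 4D. Its summit lay at −127380 bp from the promoter table's start site for the gene with the nearest start, so that table uses another start there.

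Summits lay mostly just upstream of the start. For 1071 regions with a table start within 1.5 kb, the median summit of the 6 libraries was at a median of −104.5 bp, with quartiles of −207 and 36.75 bp. The medians by library were −106 and −103 bp in WT, −110 and −103 bp in 4A, and −106 and −106 bp in 4D. The summit was upstream of the start in 71.3% of regions and within 300 bp upstream in 56.9%. No library stood apart in this position.

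**Figure D1:**
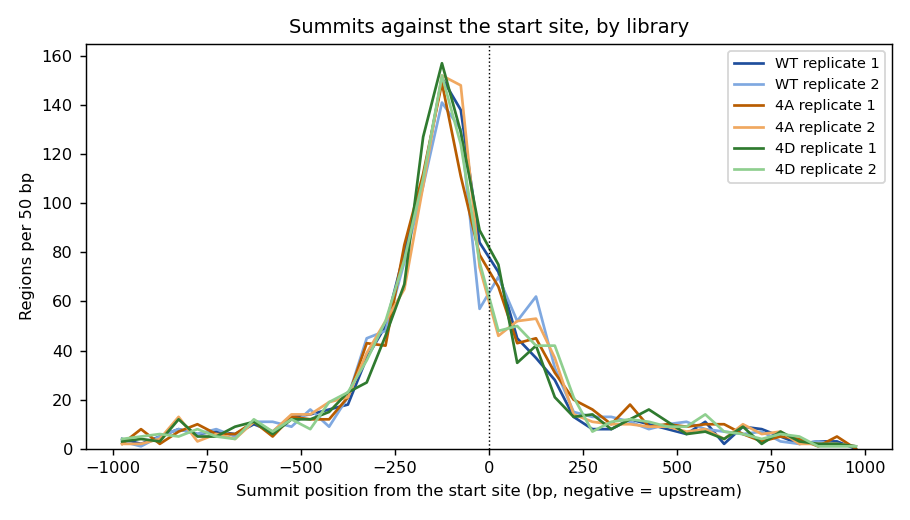
Number of regions per 50 bp (y axis) by the position of the peak summit from the gene's start in bp (x axis, negative is upstream), with 1 line for each of the 6 libraries. The 6 lines lie over each other, with their peak upstream of the start and medians between −110 and −103 bp.

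The 2 libraries of a line differed in list length, so each value below is given per library. There were 6752 peaks for WT replicate 1, 6256 for 4A replicate 1 and 5346 for 4D replicate 1, and 25845, 24203 and 21076 for the replicate 2 lists. Read depth per library is unknown from called peaks. Fold enrichment here is the authors' value for the strongest peak of a region over the background, and it is used only to describe and rank regions within a list. Its median over the 1387 regions was 10.4 and 12.7 with WT replicates 1 and 2, 8.16 and 9.82 with 4A, and 8.18 and 9.94 with 4D. The median was higher with WT than with 4A or 4D of the same replicate number, so a higher fold with WT at 1 region says nothing particular to it. The lowest value of a library lay between 2.04 and 3.12, and the highest between 44.3 and 65.8.

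The regions at gene ends were not the strongest of those found in all 6 lists. When the 3288 regions were ranked by the −log10 q-value of each list, from 0 for the lowest to 100 for the highest, the median rank of the regions at gene ends was 50.5 and 40.4 with WT, 42.9 and 42.9 with 4A, and 48.7 and 39.9 with 4D. The median of the other regions in all 6 lists was 49.7 and 55.9 with WT, 54.4 and 55.7 with 4A, and 51.1 and 57.6 with 4D. Regions at gene ends ranked lower in 5 of the 6 libraries and about level in WT replicate 1. Their peaks were wider in every library, with medians of 331 to 430 bp against 293 to 351 bp in replicate 1 lists and 766 to 856 bp against 629 to 712 bp in replicate 2 lists.

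The order of the regions by −log10 q-value was more alike between libraries of the same replicate number than between replicates of the same line. Over the 1387 regions, Spearman's rho was 0.652 to 0.774 among the replicate 1 libraries and 0.876 to 0.906 among the replicate 2 libraries. It was 0.495 to 0.539 between replicates of the same line and 0.448 to 0.559 between libraries that shared neither. These values describe the lists, whose regions share library and depth, and they carry no test. Summit positions were close in every pairing. The median distance between summits of the same region was 32 to 36 bp within replicate 2, 43 to 48 bp within replicate 1 and 43 to 46 bp within a line.

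The 20 regions with the highest mean rank lay at genes of many kinds. Mean rank is the percentile of a region's −log10 q-value within a list, averaged over the 6 lists. MTMR4, a phosphatase of endosomal phosphoinositides, led with fold enrichments of 62.1 and 45.8 with WT replicates 1 and 2, 44.3 and 37.6 with 4A, and 44.1 and 37.3 with 4D. Its region (chr17:58517316-58518995) had a rank of 99.3 or higher among the 3288 regions in each library, with the lines overlapping. The region between the 3′ end of CDKN2D, an inhibitor of the kinases that pair with D-type cyclins, and the start of KRI1, a factor of ribosome assembly, had 37.1 and 22.9 with WT, 34.4 and 18.3 with 4A, and 31.5 and 19.7 with 4D (chr19:10565779-10567407). Here replicate 1 was above replicate 2 in all 3 lines.

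NFE2L1, a transcription factor that raises proteasome genes, and COPZ2, a subunit of the coat of transport vesicles, shared a region with 46.0 and 41.5 with WT, 26.7 and 34 with 4A, and 22 and 43 with 4D. The lines overlapped there. ACAA1, a thiolase of the peroxisome, held the highest single value, 65.8 with WT replicate 1, beside 38.1 with WT replicate 2, 33.3 and 28.7 with 4A, and 50.8 and 30.2 with 4D. F2RL3 encodes the thrombin receptor PAR4 of platelets, and its region had 29.8 and 53.2 with WT, 26.5 and 30.9 with 4A, and 18.1 and 32.5 with 4D.

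MYH10, a nonmuscle myosin heavy chain that is lost as megakaryocytes mature and a known target of RUNX1 repression, had 38.6 and 25.9 with WT, 26.2 and 38.9 with 4A, and 28.4 and 45.4 with 4D (chr17:8628984-8631738). As given above, its strongest peak was not at the same place in each library. MRTFA, a coactivator of serum response factor, had 42.9 and 31.8 with WT, 26.5 and 34.5 with 4A, and 28.7 and 26.8 with 4D. Housekeeping genes stood beside these blood genes. CS, the citrate synthase, had 26.3 and 27.6 with WT, 19.2 and 22 with 4A, and 15.4 and 25.8 with 4D. TOMM40, the import channel of the outer mitochondrial membrane, had 19.8 and 26.3 with WT, 20.6 and 21.7 with 4A, and 26.7 and 20.3 with 4D. The other 11 of the 20 lay at RIC1, SPAG4, WDCP, APLP2, TPCN1, TMEM276-ZFTRAF1, PSMG1, CLDND2, ALKBH7, RAB4B and ZBED5, with values from 10.3 at RIC1 to 45.8 at ZBED5.

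**Figure D2:**
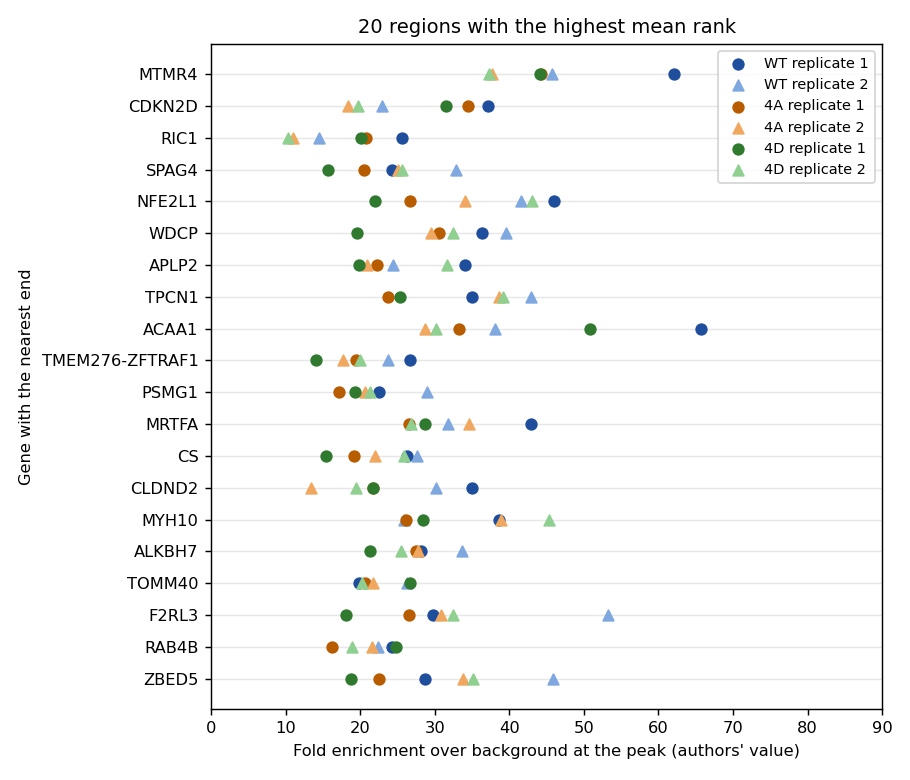
Fold enrichment over background (x axis, the authors' value) for the 20 regions with the highest mean rank (y axis, named by the gene with the nearest end), with 1 point for each of the 6 libraries. At MTMR4, WDCP, TMEM276-ZFTRAF1, PSMG1, CS, CLDND2 and ALKBH7 both WT points lie above all points of 4A and 4D. At the other regions the WT points mix with those of 4A, 4D or both. Single libraries reach 62.1 at MTMR4 and 65.8 at ACAA1.

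At the other end, the 5 regions with the lowest mean rank were called in every list with small enrichments. SLC26A6, an anion exchanger, had 5.84 and 2.77 with WT, 4.02 and 2.76 with 4A, and 3.73 and 2.58 with 4D. CALCOCO2, a receptor of selective autophagy, had 6.32 and 3.37 with WT, 6.71 and 2.79 with 4A, and 3.95 and 2.54 with 4D. UXT, DELE1 and SLC17A5 had values from 2.75 to 7.79. In these 5, replicate 1 was above replicate 2 in every line except at DELE1 with 4D. The lists differ in length, and the part of that in these values was not tested.

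Regions to either side of the 1 kb limit had values that overlapped. Just inside 1 kb, SLC39A13 (0.993 kb), a zinc transporter, had 11.4 and 29.1 with WT, 9.34 and 23 with 4A, and 13.3 and 27.1 with 4D. Just outside, NLK (1.01 kb), a kinase, had 6.82 and 8.59 with WT, 5.08 and 6.40 with 4A, and 8.27 and 5.35 with 4D. RASGRP2 (1.02 kb), an exchange factor that activates RAP1 in platelets, missed the limit with 18.7 and 62.0 with WT, 29.8 and 36.0 with 4A, and 15.8 and 45.6 with 4D. PDE8A, WNT10B, SRRM2 and CD82 lay just inside, and ID1, C2CD3 and UNC5CL just outside. No test was made at this limit.

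Genes of the blood program were among those touched. Of 42 megakaryocyte and platelet genes, 9 (21.4%) had a region at an end, against 8.40% of all protein-coding genes: ANKRD26, GP1BA, GP1BB, ITGA2B, MYH10, MYH9, NBEAL2, TLN1 and ZYX. MYH9, the nonmuscle myosin of platelets, had 36.2 and 20.3 with WT, 18.4 and 19.4 with 4A, and 19.8 and 17.3 with 4D. GP1BB, a subunit of the von Willebrand factor receptor, had 17.0 and 20.7 with WT, 18.7 and 14 with 4A, and 12.9 and 18.5 with 4D. NBEAL2, needed for platelet alpha granules, had 12.7 and 21.1 with WT, 8.77 and 19.1 with 4A, and 11.7 and 16.2 with 4D. By rank among the 3288 regions the lines overlapped at all 3 genes, MYH9 having 98.4 and 68.1 with WT, 88.3 and 78.6 with 4A, and 95.1 and 70.8 with 4D.

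Of 36 blood transcription factors, 6 (16.7%) had a region: CBFB, LYL1, RUNX1, RUNX3, STAT3 and STAT5A. The list thus held RUNX1 itself and its partner CBFB. At the upstream end of RUNX1 (chr21:35047974-35049636) the values were 17.8 and 26.2 with WT, 16.7 and 18.4 with 4A, and 13.2 and 19.6 with 4D, and the promoter table's start site for RUNX1 is another one, with the summit at −160560 bp from it. RUNX3 had 7.79 and 21.4 with WT, 12.8 and 8.06 with 4A, and 8.71 and 24.9 with 4D. STAT3 and STAT5A, which carry cytokine signals to the nucleus, shared 1 region at their 3′ ends with 15.1 and 40.1 with WT, 7.79 and 35.0 with 4A, and 11 and 29.95 with 4D. There replicate 2 was above replicate 1 in all 3 lines.

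Signalling genes had 8 of 42 (19.0%), among them PIM1, GSK3B, and CISH and SOCS3, inhibitors of cytokine signalling. PIM1, a kinase induced by STAT5, had 28.2 and 27.8 with WT, 16.1 and 22.4 with 4A, and 20.4 and 21.7 with 4D and ranks among the 3288 regions of 96.3 and 88.3, 85 and 92.4, and 96.1 and 84.8, which overlapped. RUNX1 cofactors and chromatin modifiers had 5 of 35 (14.3%), namely CBFA2T2, EP300, KDM1A, RCOR1 and SMARCA4, and 9 with a limit of 2 kb. Of 42 erythroid genes, 5 (11.9%) had a region: BLVRB, ERMAP, FTH1, FTL and TRIM58. FTL, the ferritin light chain, had 10.2 and 7.86 with WT, 4.99 and 5.32 with 4A, and 7.05 and 7.92 with 4D.

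General cell functions were touched unevenly. Splicing genes had 10 of 40 (25%), namely HNRNPA1, HNRNPK, LSM4, SF3B2, SNRNP70, SNRPA, SNRPD2, SRSF2, SRSF5 and SRSF6. Among them was SNRPD2, a core snRNP protein, at 37.2 and 18.2 with WT, 21.2 and 15.2 with 4A, and 23 and 13 with 4D. Cell cycle and DNA replication genes had 9 of 40 (22.5%), namely CCND2, CDC25A, CDC6, CDK2, CDKN2D, E2F1, E2F3, MCM3 and WEE1, which hold cyclin, cyclin-dependent kinase, E2F and replication helicase genes. Ubiquitin and proteasome genes had 4 of 40 (10%), PSMA2, PSMC4, PSMD8 and UBE2S. Mitochondrial ribosome and respiratory chain genes had 3 of 40 (7.5%), ATP5F1B, COX5A and NDUFS8, and vesicle and lysosome genes 3 of 40 (7.5%), ATP6V0C, RAB8A and VPS35. Ribosomal protein genes had 2 of 52 (3.85%), RPS9 at its 3′ end and RPS18 at its start. None of 35 genes of tissues outside the blood had a region. Without 4D replicate 1, ribosomal protein genes had 8, ubiquitin and proteasome genes 8 and mitochondrial genes 5, while all regions rose from 1387 to 1739. Without 4A replicate 1, ribosomal protein genes and vesicle genes had 5 each, with 1658 regions in all. The low counts of these lists thus changed with the libraries used. The share of all protein-coding genes without those libraries was not counted. The counts carry no test, and nothing is read from a share near the background.

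**Figure D3:**
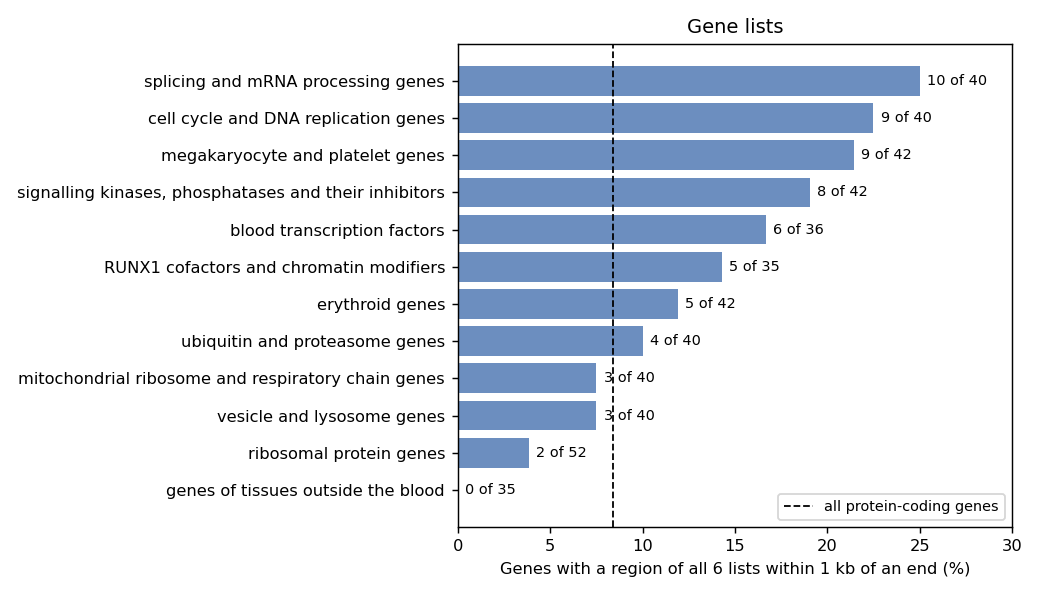
Share of each list's genes with a region of all 6 lists within 1 kb of an end (x axis, percent; bars labelled with the counts) for the 12 gene lists (y axis). The dashed line is the 8.40% of all protein-coding genes; splicing genes reached 25% and genes of tissues outside the blood 0.

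Regions at 3′ ends alone were few but included strong ones. TADA3, a subunit of histone acetyltransferase complexes, had a region at its 3′ end with 19.6 and 26 with WT, 25.9 and 23.2 with 4A, and 14 and 21.3 with 4D, and a second one at its start with 4.11 to 8.93. DUS2, a tRNA dihydrouridine synthase, had 19.95 and 20.8 with WT, 30.5 and 18.8 with 4A, and 18.2 and 21.5 with 4D. IL10, an anti-inflammatory cytokine, had 14.3 and 25.7 with WT, 14.3 and 24.2 with 4A, and 14.5 and 25.4 with 4D, a similar fold in each line. Its ranks among the 3288 regions were 80.9 and 93.3 with WT, 94.1 and 97.6 with 4A, and 91.9 and 97.05 with 4D. Both 4A ranks were thus above both WT ranks. The median rank among the 3288 regions was 40.4 to 45.5 by library for regions at 3′ ends alone and 37.7 to 50.5 for those at starts alone, so the ranges overlapped. There were 23 genes with regions at separate places. LAPTM5, a lysosomal protein of blood cells, was one, with 14.4 and 22.7 with WT, 10.0 and 18.3 with 4A, and 15.1 and 18.3 with 4D at its start and 6.82 and 18.9, 4.6 and 13.3, and 3.66 and 17.3 at its 3′ end.

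The promoters of these regions were compared with those of other genes by counting 14 motifs, a measure that the selection did not use. The 1300 genes with a start at a region in all 6 lists were set beside 5604 genes whose start lay at a region in 1 to 5 lists and 8908 genes with none. CCAAT was in 50.2% of the promoters of the first class (95% Wilson interval 47.5 to 52.9%), in 35.6% (34.3 to 36.8%) of the second and in 34.7% (33.8 to 35.7%) of the third. It was in 35.7% of all 27195 promoters in the table. The share did not climb evenly. It was 30.8%, 35.0%, 36.6%, 39.3% and 38.4% for 1, 2, 3, 4 and 5 lists. At least 2 CCAAT boxes were in 25.2%, 13.4% and 10.1% of the 3 classes.

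RUNX letters were more frequent at regions in all 6 lists than at those in 1 to 5 lists. TGTGGT or TGCGGT was in 28.6% (26.2 to 31.1%) of the promoters at all 6 lists, 19.4% (18.3 to 20.4%) at 1 to 5 lists and 16.7% (15.97 to 17.5%) with none. TGTGGT alone was in 12.4% (10.7 to 14.3%) of the promoters at regions in all 6 lists, in 8.99% (8.27 to 9.77%) of those in 1 to 5 lists, in 11.8% (11.1 to 12.5%) of those with none, and in 13.1% of all promoters in the table. It thus stood above the 1 to 5 list class but not above all promoters, which were not matched for GC content. TGCGGT was in 18.1% (16.1 to 20.3%), 11.3% (10.5 to 12.1%), 5.56% (5.10 to 6.05%) and 7.12%. A looser core, TGNGGT, which covers both, was in 48.7% of the promoters at regions in all 6 lists, 39.9% at 1 to 5 lists and 43.2% of all promoters. None of the RUNX core, its variant and the CCAAT box was in 36.0%, 51.8% and 54.3% of the 3 classes.

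Most other motifs named here were closer between the 6 list and the 1 to 5 list promoters than either was to all promoters. The GC box GGGCGG was in 80.1% (77.8 to 82.2%) of promoters at regions in all 6 lists and 73.8% (72.7 to 74.97%) at 1 to 5 lists, against 45.7% with none and 44.7% of all. The ETS core CCGGAA was in 29.4% and 31.3%, against 16.5% and 17.6%. The GATA core AGATAA, for factors of the erythroid and megakaryocyte lineages, was in 3.46% and 4.68%, against 9.96% and 10.5%, and the TAL1 E-box CAGNTG was in 40.2% and 41%, against 51.7% and 49.8%. The AP-1 site TGANTCA was in 2% (1.37 to 2.91%) at all 6 lists, 4.12% (3.63 to 4.67%) at 1 to 5 lists and 7.73% of all. The cyclic AMP response element was an exception, with 2.08% at all 6 lists, 3.25% at 1 to 5 lists and 1.98% of all. All motifs were searched on both strands, and none of these counts carries a test.

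**Figure D4:**
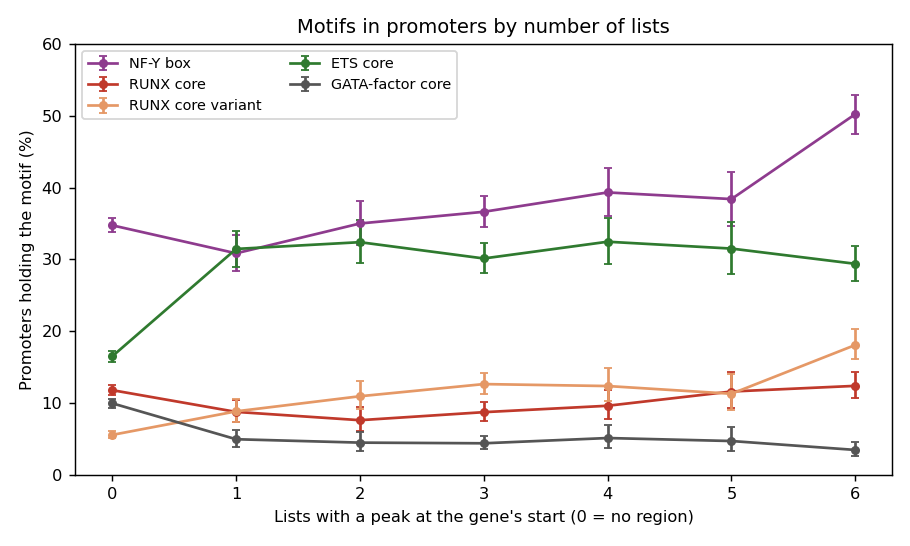
Share of promoters holding each of 5 motifs (y axis, percent, with 95% Wilson intervals) by the number of lists with a peak at the gene (x axis, 0 is no region). The NF-Y box (CCAAT) is at 50.2% for 6 lists and at 30.8 to 39.3% for 0 to 5; the RUNX core (TGTGGT) lies between 7.60 and 12.4%.

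Base composition moved with the classes. The median GC content was 67.2% for promoters at regions in all 6 lists, 66.7% at 1 to 5 lists and 58.7% with none. Bands of GC content were cut so that each held a similar number of promoters at all 6 lists (448, 424 and 428). The classes were not matched for GC within a band, and the lowest band held 5901 of the promoters with no region. Within these bands the order for CCAAT was the same. It was 56.2%, 42.7% and 40.3% for the 3 classes up to 63.7% GC, 55.7%, 36.5% and 28.0% in the middle band, and 38.6%, 26.4% and 19.0% above 70.7% GC. TGTGGT in the same bands was also highest at all 6 lists, 17.0%, 13.2% and 14.6%, then 12.7%, 8.31% and 8.26%, then 7.24%, 4.61% and 4.25%. Its interval at all 6 lists overlapped those of the other classes in the lowest band (13.8 to 20.7% against 11.9 to 14.7% and 13.7 to 15.5%). The intervals also overlapped in the highest band, and they did not in the middle one. Opposite-strand starts made little difference to CCAAT, which was in 48.8% of the promoters of all 6 lists with such a start and 50.7% of those without.

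More of the regions in all 6 lists had a CCAAT box close to the summit, as more of their promoters held one at all. In 484 regions in all 6 lists whose promoter window covered 50 bp to either side of the summit, 208 (43.0%, 38.6 to 47.4%) had a CCAAT box within that distance, against 30.5% (26.9 to 34.5%) of 560 regions in 4 to 5 lists and 24.9% (22.8 to 27.1%) of 1573 in 1 to 3 lists. TGTGGT was that near in 6.20%, 5.36% and 4.13%, and TGCGGT in 8.06%, 5.54% and 6.87%, where the intervals overlapped. Where the summit lay in the window, CCAAT was in 60.4% of 614 promoters at all 6 lists and 39.8% of 2704 at 1 to 5 lists.

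Per 1000 positions at regions in all 6 lists, CCAAT boxes numbered 5.41 within 25 bp of the summit, 5.49 at 25 to 50 bp, 4.78 at 50 to 75 bp, 4.41 at 75 to 100 bp, 2.93 at 100 to 150 bp and 2.35 at 200 to 250 bp. Distance from the gene start alone gave 3.63 within 25 bp and 3.09 at 200 to 250 bp. The density near the summit was above what the distance from the start gives, and it was so in the other classes too, with 3.50 against 2.42 within 25 bp at 4 to 5 lists and 2.98 against 2.03 at 1 to 3 lists. The rise towards the summit was therefore shared by the classes, and the level was highest at 6 lists. TGTGGT rested on few matches, with 14, 24, 25 and 17 in the first 4 bins, or 0.47, 0.80, 0.86 and 0.61 per 1000 positions, and 0.40 at 200 to 250 bp. Distance from the start alone gave 0.46, 0.45, 0.46 and 0.46 in the first 4 bins. Within 25 bp the density of TGTGGT was thus about level with it. At 4 to 5 lists it was 0.55 against 0.38 there, and at 1 to 3 lists 0.49 against 0.33.

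**Figure D5:**
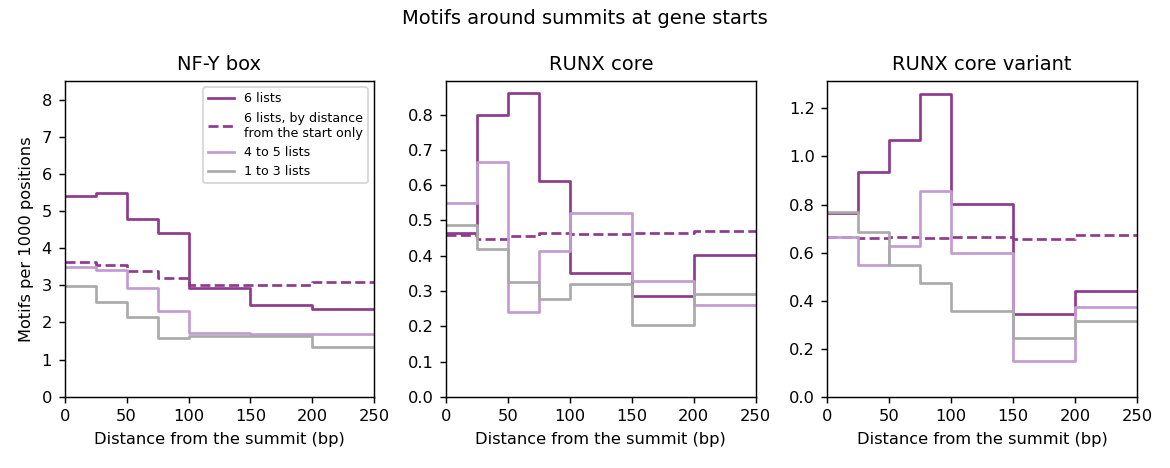
Motifs per 1000 positions (y axis) by distance from the summit in bp (x axis) at gene starts, with 1 panel for each motif and its own scale. Solid lines are regions by number of lists, and the dashed line gives what distance from the start alone predicts for 6 lists. The NF-Y box (CCAAT) is at 5.41 within 25 bp of the summit for 6 lists against 3.63 on the dashed line.

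Within the regions in all 6 lists, CCAAT was as frequent at weak as at strong ones. From the lowest to the highest of 4 equal groups by mean rank, with 325 promoters in each, it was in 48.3%, 50.5%, 52.6% and 49.5%. TGTGGT was in 10.5%, 10.8%, 12.3% and 16.0% (12.4 to 20.4% in the highest), and TGCGGT in 16.0%, 18.2%, 16.6% and 21.5%. The intervals of these groups overlapped for each motif.

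The 3 lines were compared by rank among the 3288 regions, counting those where both libraries of a line lay above both of another. WT was above 4A in 123 of the 1387 regions (8.87%), beside 9.18% of all 3288, and 4A above WT in 97 (6.99%), beside 10.1%. WT was above 4D in 148 (10.7%), beside 10.2%, and 4D above WT in 80 (5.77%), beside 9.49%. The 4A ranks were above 4D in 163 (11.8%), beside 13.8%, and 4D above 4A in 134 (9.66%), beside 11.3%. Paired by replicate number, with the rank higher in both same-numbered pairs, WT was above 4A in 364 regions (26.2%, beside 22.5% of all 3288) and 4A above WT in 259 (18.7%, beside 23.4%). WT was above 4D in 411 (29.6%, beside 26.7%) and 4D above WT in 308 (22.2%, beside 26.9%). The 4A ranks were above 4D in 351 (25.3%, beside 27.4%) and 4D above 4A in 326 (23.5%, beside 24.0%). Without the pairing the shares were near those of all 3288 regions or below them, and with 2 libraries against 2 an exact test cannot go below 0.333.

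The regions with the largest such differences are given by rank in each library, replicate 1 first. At ENSA, an inhibitor of the phosphatase PP2A, the ranks were 65.3 and 41.1 with WT and 3.59 and 19.9 with 4A, but 83.5 and 14.2 with 4D. At GSK3A, a kinase of glycogen metabolism, they were 56.5 and 54.4 with WT, 2.08 and 13.9 with 4D, and 2.95 and 37.3 with 4A. At GPT2, a mitochondrial aminotransferase, they were 89.2 and 45.1 with 4A, 0.852 and 39.7 with WT, and 15.5 and 35.3 with 4D. The gap at GPT2 was wide in replicate 1 and narrow in replicate 2.

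At USP16, a histone deubiquitinase, the ranks were 90.5 and 65.9 with 4A, 35.2 and 53.1 with WT, and 49.8 and 59.1 with 4D. At SRRM2, a splicing protein, a region at the 3′ end had 54.2 and 92.7 with 4D, 2.95 and 39.1 with 4A, and 32.2 and 74.9 with WT. At VPS29, a retromer subunit, they were 46.5 and 39.1 with 4A, 0.623 and 7.09 with 4D, and 56.1 and 6.11 with WT. At SRRM2 and VPS29 the gap was wide in both. The other regions named by the same rule were ZNF787 and DAXX (WT above 4A), SRD5A3 and MRPL51 (WT above 4D), ZNRF2 (4A above WT), ATN1 (4A above 4D), SYT6, HDGF and LCE3A (4D above WT), and TMPRSS3 and KIAA1586 (4D above 4A). Ranked by fold enrichment instead, the separation held for 77 of the 123 regions with WT above 4A, 112 of 148 with WT above 4D, 60 of 97 with 4A above WT, 105 of 163 with 4A above 4D, 49 of 80 with 4D above WT and 80 of 134 with 4D above 4A. Of the regions named, LCE3A lost it.

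The share of promoters with CCAAT differed between some of these groups, though not alike in both replicates. Promoters are not replicates of a line, so the intervals cover counting error only and not the spread between libraries. It was 62.1% (53.3 to 70.2%) of 124 start promoters where 4D was above 4A and 37.5% (30.01 to 45.6%) of 144 where 4A was above 4D. In replicate 1 alone, the 280 regions with the largest excess of 4D over 4A had CCAAT in 58.6% and the 280 with the largest excess of 4A in 40.4%. In replicate 2 alone these were 51.8% and 50%. For 4D against WT the share was 52.1% (40.8 to 63.1%) of 73 promoters where 4D was above and 36.7% (29.1 to 45.0%) of 139 where WT was above. In replicate 1 it was 50% (44.2 to 55.8%) against 47.5% (41.7 to 53.3%), which is about level. In replicate 2 it was 58.6% (52.7 to 64.2%) against 45.7% (39.98 to 51.6%). For 4A against WT it was 32.5% (23.4 to 43.2%) of 83 promoters where 4A was above and 45.8% (37.2 to 54.7%) of 120 where WT was above. By replicate the order turned, with 41.4% against 56.8% in replicate 1 and 54.1% against 45.4% in replicate 2.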

How the data were processed

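The authors deposited 1 peak list for each of 6 libraries (WT, 4A and 4D, 2 biological replicates each). The submitters' processing notes name MACS2 2.2.7.1, Bowtie2 2.4.2, cutadapt 3.4, deepTools 3.5.1 and Picard 2.25.6, with the build hg38. Per the labels, peaks were called against the empty vector line, and pooling of its replicates is not stated. For each peak the deposited lists give a score, a fold enrichment, which is a ratio, and significance as −log10 p-value and −log10 q-value. These are the authors' values and were used to describe and rank peaks within a list.

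Lists were merged with python 3.11.15 and pandas 2.3.3, and a region took the values of its strongest peak. Gene positions, strand, starts and promoters came from RefSeq tables of GRCh38.p14, the same build. Intervals are 95% Wilson intervals. The genes named are the 20 regions with the highest and 5 with the lowest mean rank, up to 4 genes by rank in each of 12 gene lists, the 5 to either side of 1 kb, the 3 with the largest rank difference for each pair of lines and direction, up to 5 touching most ends, at separate places or at 3′ ends only, and the promoters printed; of these, the text describes some and lists others. For most lists the genes counted are also named; some are not reported here. The regions, gene lists and motifs were chosen with earlier results of these data known. Counting was tested on simulated data. Whether the replicates share a culture is not stated beyond biological replicates. No test was made, since the selection used these lists. Read depth is unknown. Alternatives tried were other distances, thresholds, list lengths, summit windows, motif letters and leaving out each library.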

Additional observations from a re-analysis of the deposited data

How the results depend on the processing

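Leaving out each library in turn gave 1387 to 1739 regions and a share at gene ends of 40.9 to 42.3%. The share was 40.2% with summit windows of 100 bp to either side, 38.0% with all lists at the length of the shortest (795 regions), 37.1% with a limit of 0.5 kb and 47.1% with 2 kb. TGNGGT in place of TGTGGT gave 48.7%, and CCAAT was in 60.4% of promoters that held the summit. Of the other 36 comparisons of main values with an alternative, each moved by less than its interval or by less than 1.5 times. For gene lists, 78 did likewise and 6 moved by more, as given beside the counts. Bands of GC content, opposite-strand starts, 1 promoter per region (CCAAT 50.6%, TGTGGT 12.3%) and the split by replicate of CCAAT by line were chosen after seeing the data. Paired by replicate number, which was chosen after seeing the data, the counts of regions above were 364 (WT over 4A), 411 (WT over 4D), 259 (4A over WT), 351 (4A over 4D), 308 (4D over WT) and 326 (4D over 4A); no paired test was made. Lists hold called peaks alone, so a region absent from a list was not called at that library's unknown depth, and genes without a strand in the RefSeq table were left out of the promoter counts. The cause of these changes was not tested.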

Other observations

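The regions were spread unevenly over chromosomes. There were 11.3 per 100 protein-coding genes on chromosome 21 and 9.92 on chromosome 19, against 3.54 on chromosome 10 and 1.30 on chromosome X. Where a promoter held 2 or more CCAAT boxes, the median spacing of neighbours was 47 bp at regions in all 6 lists (589 pairs), 43 bp at 1 to 5 lists and 48 bp with no region, and 32.8%, 33.1% and 28.3% of the pairs were 20 to 40 bp apart.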
